A study of Mus musculus with 19 samples.

Results

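The Yap1 and Birc2 locus lies near the proximal end of mouse chromosome 9, and its DNA copy number was read here from the probes of an oligonucleotide array between 7.5 and 8.3 Mb of the mm9 (NCBI37) assembly. Within chr9 3 to 9 Mb the array held 515 probes, and 97 of them lay in the 0.8 Mb of the locus. The remaining 11906 probes of the chromosome served as the comparator, out of 234018 probes placed on the genome. The members were chosen by position.

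Yap1 encodes a transcriptional co-activator that the kinases of the Hippo pathway hold out of the nucleus, and it drives growth of hepatocytes when that restraint is lost. Birc2 encodes cIAP1, an inhibitor of apoptosis that acts as a ubiquitin ligase in signalling from TNF receptors. The pair is known as the centre of a small amplified region found in liver cancers of other mouse models. In the RefSeq gene order (assembly GRCm38.p6) a run of matrix metalloproteinase genes that ends with Mmp7 is followed by Tmem123, Birc2, Birc3, Yap1, Cfap300, Cep126, Trpc6 and the progesterone receptor gene Pgr. Birc3, which sits between them, encodes the related cIAP2. The deposited files name no genes, so values are given by probe position and not for Yap1 or Birc2 alone.

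Array comparative genomic hybridization (aCGH) compared 3 groups, namely 4 benign hepatocellular adenomas (HCA), 6 malignant hepatocellular carcinomas (HCC) and the unaffected liver tissue of 9 mice. The unaffected liver of each mouse came from the same animal as its tumor, and mouse 6240 gave both HCC 4 and HCC 2. All 9 mice carried Mad2 f/f and AlbuminCre on a mixed background of C57BL/6 and 129. Mad2 (Mad2l1) is a component of the spindle assembly checkpoint, and albumin-driven Cre deletes floxed alleles in hepatocytes. Per the paper, immune cells that infiltrate the tumors keep Mad2l1. The HCA mice were females of 12.0 to 16.9 months, p53(f/f) in 2430 and 6199 and p53(f/+) in 5884 and 5901. The HCC mice carried p53ser246+ and were 12.3 to 16.2 months old, with 6240 and 6602 female and 6487, 6565 and 6642 male. Tumor type and Trp53 genotype therefore cannot be told apart. The unaffected livers carried the same alleles as the tumors, so none of the compared groups was wild type. Wild-type liver DNA served as the reference of each array, per the paper. Tumor pieces held surrounding liver and infiltrating cells, and a lower copy number per tumor cell and a larger share of tumor cells cannot be told apart in a ratio.

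Each ratio set sample DNA (Cy5) against liver DNA of the opposite sex (Cy3), on the log2 scale, centred on the autosomal median of its array. On this scale 1 copy in place of 2 in every cell is -1.0 and 3 copies in place of 2 is 0.58. The X chromosome, which differs by 1 copy between the sexes, read 0.89 to 1.04 in the female livers and -0.90 to -1.02 in the male livers, so the arrays returned most of the nominal difference and the labelled sexes. HCC 2 of 6240 stood apart on X, at 0.32 against 1.04 in its own liver, and the other female tumors ran from 0.73 to 1.07. Over 885 autosomal probes that varied most between livers, each of the 10 tumors correlated best with its own liver (r = 0.57 to 0.88, against at most 0.40 with another mouse's liver). Median spot signals lay at 1.84 to 4.86 times the local background for Cy5, and 98.4 to 99.9% of autosomal spots were well above background. Noise of a single chr9 probe was 0.22 to 0.43. Precision is limited by how few arrays each group holds.

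The locus read below the unaffected livers in both tumor types, and no tumor read above its own liver there. The mean aCGH ratio of the 97 probes was -0.23 ± 0.14 (SD, n = 4) in HCA, -0.14 ± 0.12 (n = 6) in HCC and -0.0075 ± 0.067 (n = 9) in unaffected liver. The 4 HCA values were -0.42 (2430), -0.24 (5884), -0.14 (5901) and -0.13 (6199). The HCC values ran from -0.34 in 6642 to -0.029 in 6565, with a median of -0.13. The livers ran from -0.14 in 2430 to 0.079 in 6642, with a median of 0.0084. HCA lay lower than the livers, with 3 of 4 tumors below every liver (difference -0.23, exact two-sided permutation p = 0.0028, adjusted p = 0.0084 over 3 comparisons). HCC lay lower than the livers too, with 3 of 6 tumors below every liver and all 6 below the liver mean (difference -0.13, exact permutation p = 0.010, adjusted p = 0.015). That test counted the 2 HCCs of mouse 6240 separately, and with them averaged the difference was -0.13 (exact permutation p = 0.018, adjusted p = 0.027). HCC and HCA overlapped (difference 0.094, exact permutation adjusted p = 0.28), and the difference was 0.031 without HCA 2430 and 0.010 with each mouse as a block. A limma fit adjusted over all windows gave the same differences to liver with an adjusted p of 0.0062 for HCA and 0.084 for HCC. With each mouse as a replicate block the limma fit gave -0.18 (adjusted p = 0.061) for HCA and -0.17 (adjusted p = 0.065) for HCC. With normexp background correction the differences were smaller, -0.079 for HCA (exact permutation adjusted p = 0.017) and -0.057 for HCC (adjusted p = 0.049 by the same exact test). Without HCC 6642 the HCC difference was -0.093 (exact permutation adjusted p = 0.052).

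**Figure D1:**
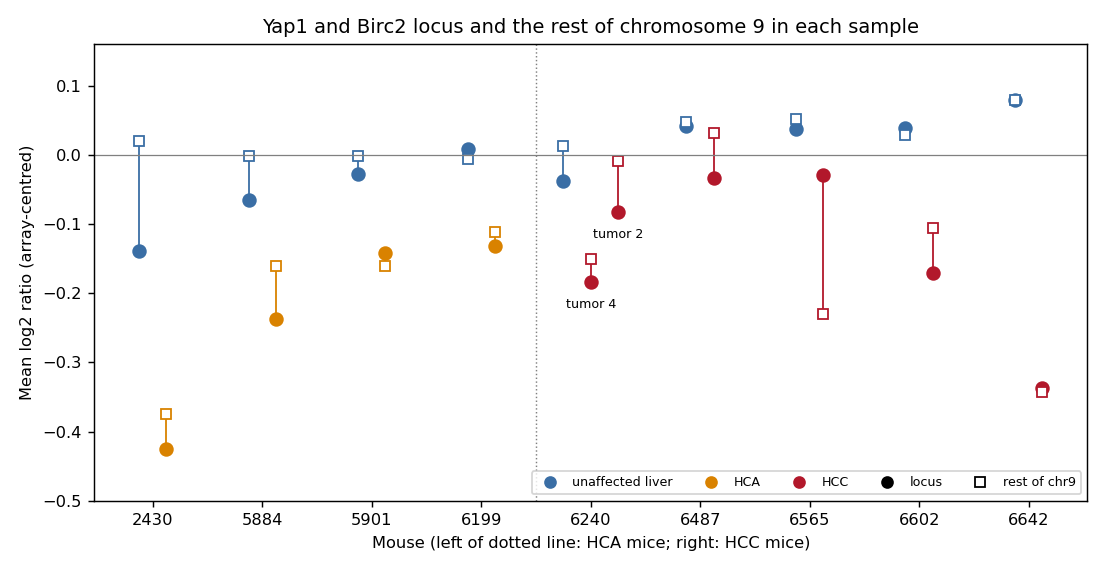
Mean array-centred log2 ratio of the 97 probes of the Yap1 and Birc2 locus (filled circles) and of the rest of chromosome 9 (open squares) in each of the 19 samples, by mouse, with unaffected liver in blue, HCA in orange and HCC in red. In 10 of 10 tumors the circle lies below that of the own liver, and only in HCC 6565 does it lie far above its own square.

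Set against its own liver, the locus was lower in every tumor. The HCA of mouse 2430 differed from its liver by -0.28, that of 5884 by -0.17, that of 6199 by -0.14 and that of 5901 by -0.11. Among the HCCs the difference was -0.42 in 6642, -0.21 in 6602, -0.15 in HCC 4 of 6240, -0.075 in 6487, -0.065 in 6565 and -0.045 in HCC 2 of 6240. In HCC 6642, the lowest, 94 of 97 probes were lower than in its liver. In HCC 2 of 6240, the weakest, 56 of 97 probes were lower. Averaged per mouse, with both tumors of 6240 as 1 value, the difference was -0.17 ± 0.11 (SD, n = 9 mice) and negative in 9 of 9 mice (exact sign-flip p = 0.0039, the smallest that 9 mice can give; 95% interval -0.27 to -0.094). Over the probes, 87 of 97 had a median difference below 0 across the 10 tumor and liver pairs. No probe was higher than the own liver in all 10 pairs, and 2 were lower in all 10. Counts of probes were not made outside the locus, so they do not set it apart. The rest of chr9 was likewise lower than the own liver in 9 of 9 mice (-0.20 on average).

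The lowering was not particular to the locus within the genome. Among 2275 autosomal windows of 97 probes, between 5.54% (HCC 6642) and 46.2% (HCC 2 of 6240) lay lower than the locus in the same tumor. Among 20-probe windows on the array-centred scale, 26 of 26 windows of 3 to 9 Mb passed the limma test in HCA against unaffected liver, all of them lower and all 5 of the locus included, where 24.6% of all 11063 autosomal windows passed in the lower direction. In HCC 8 of 26 passed, all of them lower, and 0 of the 5 of the locus, where 14.1% of all windows passed as lower. The smallest limma adjusted p in the locus was 0.070. An unadjusted limma p under 0.05 was found in 4 of the 5, in 21 of the 26 and, in either direction, in 33.4% of all windows.

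The question specific to this locus is whether it departed from its own chromosome, as a focal amplification would. It did not do so as a group. The locus contrast, the locus minus the rest of chr9 in the same array, was -0.032 ± 0.042 (SD, n = 4) in HCA, -0.0052 ± 0.11 (n = 6) in HCC and -0.033 ± 0.054 (n = 9) in unaffected liver. The HCA values were -0.077 (5884), -0.051 (2430), -0.020 (6199) and 0.020 (5901), within the range of the livers except for 5901, whose value exceeded the highest liver (0.015). Among HCCs 5 values lay between -0.075 and 0.0053 and the value of 6565 was 0.20. Livers ran from -0.16 in 2430 to 0.015 in 6199, with a median of -0.015. HCA and liver differed by 0.00090 and HCC and liver by 0.028 (exact permutation, adjusted p = 0.98 for both). HCC and HCA differed by 0.027 (exact permutation adjusted p = 0.98). Without HCC 6565 the HCC difference to liver turned to -0.014 and that to HCA to -0.014, again within the spread.

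Paired with the own liver, the contrast changed by 0.021 ± 0.092 (SD, n = 9 mice; exact sign-flip p = 0.56), with 5 mice negative and 4 positive. Its 95% interval ran from -0.042 to 0.097, below the 0.58 of a gained copy in every cell of every tumor. A gain in few tumors or in part of the cells would be diluted in the mean over mice. Without mouse 6565 the mean was -0.0032. HCA mice alone gave 0.027 ± 0.064 (n = 4; exact sign-flip p = 0.62, smallest possible 0.12) and HCC mice alone 0.017 ± 0.12 (n = 5; exact sign-flip p = 0.88, smallest possible 0.062). The change did not differ detectably between HCC and HCA mice (difference -0.0096, exact permutation p = 0.89). For single tumors the yardstick was the spread between neighbouring chr9 windows of 97 probes, an SD of 0.031 to 0.049. The change was 0.11 in the HCA of 2430, 2.63 times that SD, and 0.22 in the HCC of 6565, 5.03 times that SD. In the other 8 tumors it lay between -0.075 and 0.045, at most 1.56 times that SD. The value of 2430 came with a low contrast in its liver (-0.16), the lowest of the livers, and not with a high one in its tumor (-0.051).

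**Figure D2:**
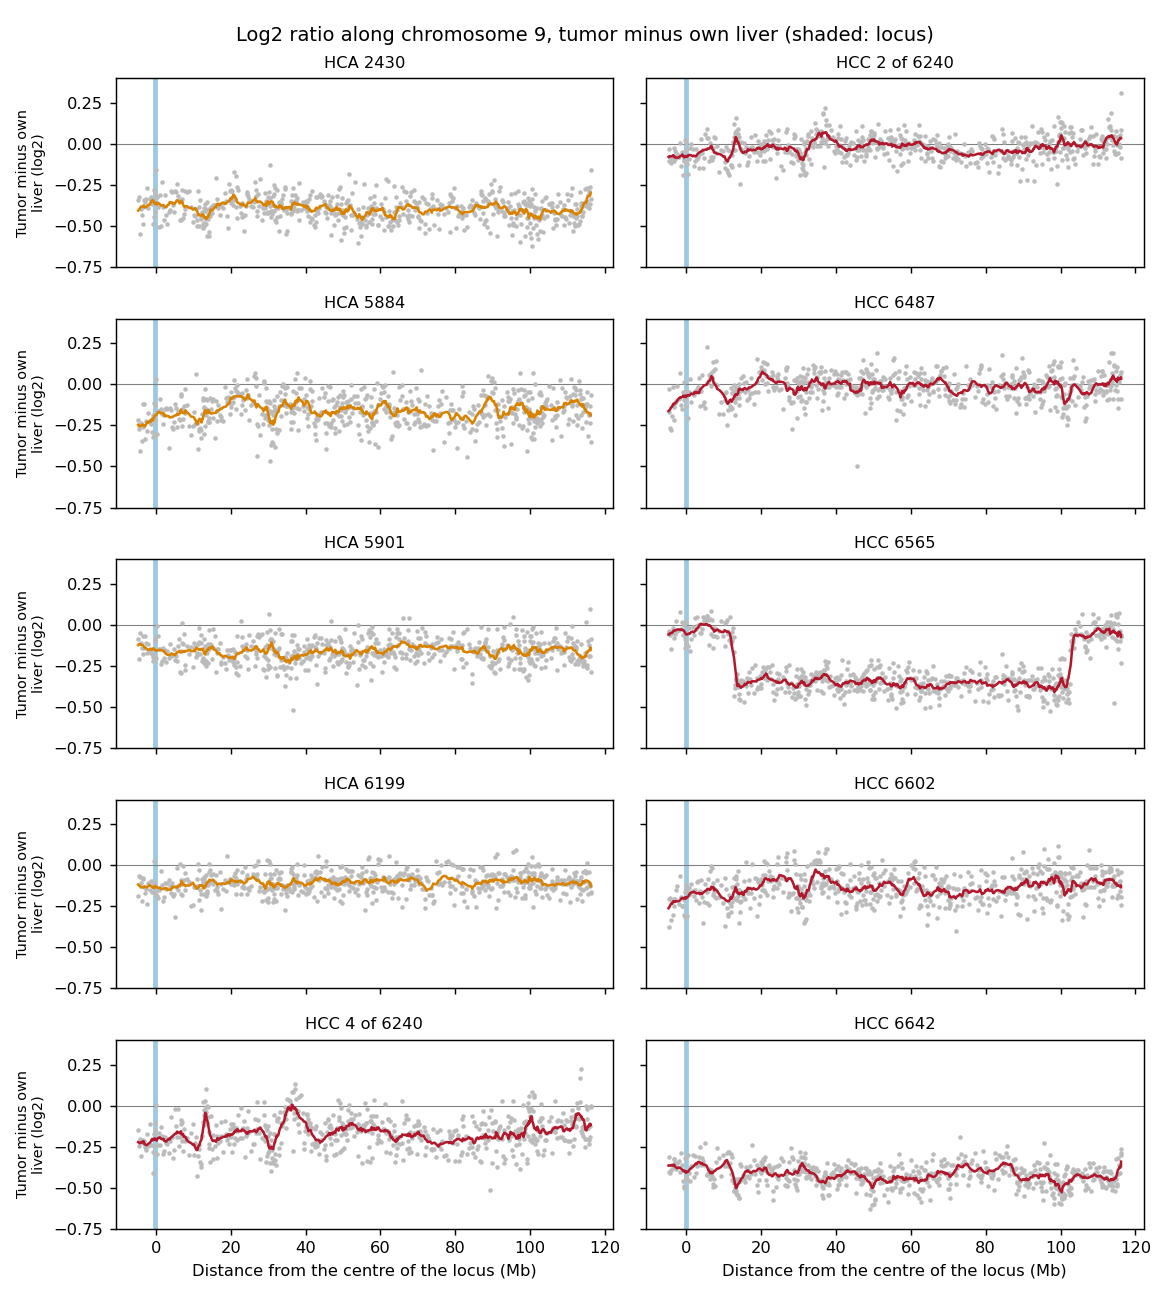
Log2 ratio along chromosome 9, tumor minus own liver, against the distance from the centre of the locus in Mb; grey points are 20-probe windows, the coloured line (orange HCA, red HCC) is their running mean over 15 windows, and the blue band is the locus. HCC 6565 steps down after the proximal part (-0.033) to an inner part at -0.36 and returns to -0.053 near the distal end, and no other tumor shows a step of that size.

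HCC 6565 had a different course along chr9 from the other 9 tumors. A least-squares fit with a pair of change points placed them between 20644712 and 20660437 and between 110539524 and 110543792 (mm9). Between them 9126 probes over 89.9 Mb differed from the own liver by -0.36 on average. The 1425 probes proximal to the first change point, which hold the Yap1 and Birc2 locus, differed by -0.033, and the 1452 distal probes by -0.053. The locus itself, at -0.065, lay 0.29 above the inner part and -0.032 from the proximal part around it. Its first change point lay 12.3 Mb beyond the end of the locus. The contrast of 0.20 in this tumor thus came with a low inner chromosome and a locus near its own liver, not with a locus above its liver. The change points were chosen on these values, so the levels are a description without a test. In the other 9 tumors the segment that stood out most differed from the remainder of chr9 by -0.070 to 0.15, against -0.31 in 6565. The parts bounded by the 6565 change points differed in those 9 tumors by -0.057 to 0.051 (proximal minus inner) against 0.32 in 6565. In the 9 livers this difference was -0.083 to 0.0056.

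Where the rest of chr9 fell, the locus fell with it in most tumors. In HCC 6642 the rest of chr9 differed from the own liver by -0.42 and the locus by the same amount, -0.42. The HCA of 2430 read -0.39 for the rest of the chromosome and -0.28 for the locus. In HCC 4 of 6240 the values were -0.16 and -0.15, and in the HCA of 5901 they were -0.16 and -0.11. The locus fell further than the rest in HCC 6602 (-0.13 for the rest and -0.21 for the locus), HCA 6199 (-0.11 and -0.14) and HCA 5884 (-0.16 and -0.17). Tumors with little change of the chromosome, HCC 2 of 6240 (-0.020) and HCC 6487 (-0.016), had a locus at -0.045 and -0.075. HCC 6565, with -0.28 for the rest of the chromosome and -0.065 for the locus, was the exception. The rest of chr9 as a whole lay lower than liver in HCA (-0.23, exact permutation adjusted p = 0.0042, 4 of 4 below every liver) and in HCC (-0.16, adjusted p = 0.0051 by the same exact test, 5 of 6 below every liver).

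The flanks inside 3 to 9 Mb gave the same picture with a nearer comparator. Tumor minus own liver, the locus exceeded its flanks by 0.025 ± 0.045 (SD, n = 9 mice; exact sign-flip p = 0.14, 6 of 9 mice positive, 95% interval -0.010 to 0.062). HCC 6565, high against the whole chromosome, was -0.023 against its flanks. The HCA of 2430 had the largest value, 0.11, and HCC 6642 the lowest, -0.037. The 28 probes between 7.8 and 8.0 Mb, the stretch closest to Yap1 and Birc2, gave a paired contrast of 0.040 ± 0.093 (SD, n = 9 mice; exact sign-flip p = 0.26). In that stretch 16 to 22 of 28 probes were lower than in the own liver in the tumors other than HCC 6642, where 27 of 28 were; 1 probe was missing in HCC 6487.

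**Figure D3:**
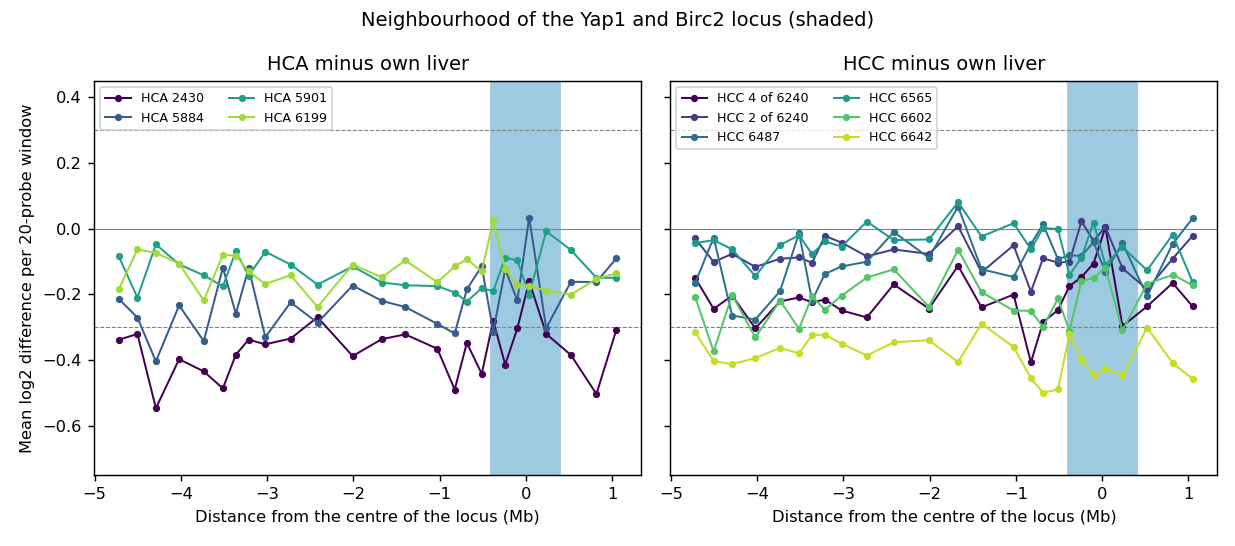
Mean log2 difference, tumor minus own liver, of the 26 windows of 20 probes between 3 and 9 Mb of chromosome 9, against the distance from the centre of the locus in Mb; each line is a tumor, dashed lines mark -0.3 and 0.3, and the blue band is the locus. No window of any tumor rises above 0.3, and the highest value is 0.081 in HCC 6565. Below -0.3 lie 5 of 5 locus windows in HCC 6642 (lowest -0.45), 3 in HCA 2430, 2 in HCA 5884 and 2 in HCC 6602. Counts below -0.3 were not made outside the locus. The lowest windows there were -0.50 in HCC 6642, -0.55 in HCA 2430, -0.40 in HCA 5884 and -0.37 in HCC 6602. In the same order the flanks averaged -0.38, -0.39, -0.23 and -0.22, against -0.42, -0.28, -0.17 and -0.21 for the locus.

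No focal call was made at the locus in any tumor. With each chromosome brought to its own median (the chromosome normalized aCGH ratio), 0 of the 5 windows of 20 probes in the locus lay beyond 0.3 from the own liver in any of the 10 tumors. The locus windows reached at most 0.30 in HCC 6565, 0.22 in HCA 2430 and 0.18 in HCA 5884, and at lowest -0.20 in HCC 6602. Of the 26 windows from 3 to 9 Mb, 1 passed 0.3, at chr9:6150244-6309060 in HCC 6565 (0.36), and that window read 0.081 on the array-centred scale. For background, the share of all 11063 autosomal windows beyond 0.3 was 0.19% in HCA 2430, 1.44% in HCA 5884, 0.118% in HCA 5901 and 0.0181% in HCA 6199. In the HCCs it was 0.579% in HCC 4 and 0.127% in HCC 2 of 6240, 0.859% in 6487, 0.235% in 6565, 1.49% in 6602 and 0.0452% in 6642. At such shares 5 windows would seldom hold a call, so a count of 0 at the locus was near the background. Larger chromosome-normalized window values did occur elsewhere, up to 0.65 in HCC 6487 and HCA 6199 and down to -1.43 in HCC 2 of 6240. How far those changes extended along their chromosomes was not examined, so they need not be focal.

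**Figure D4:**
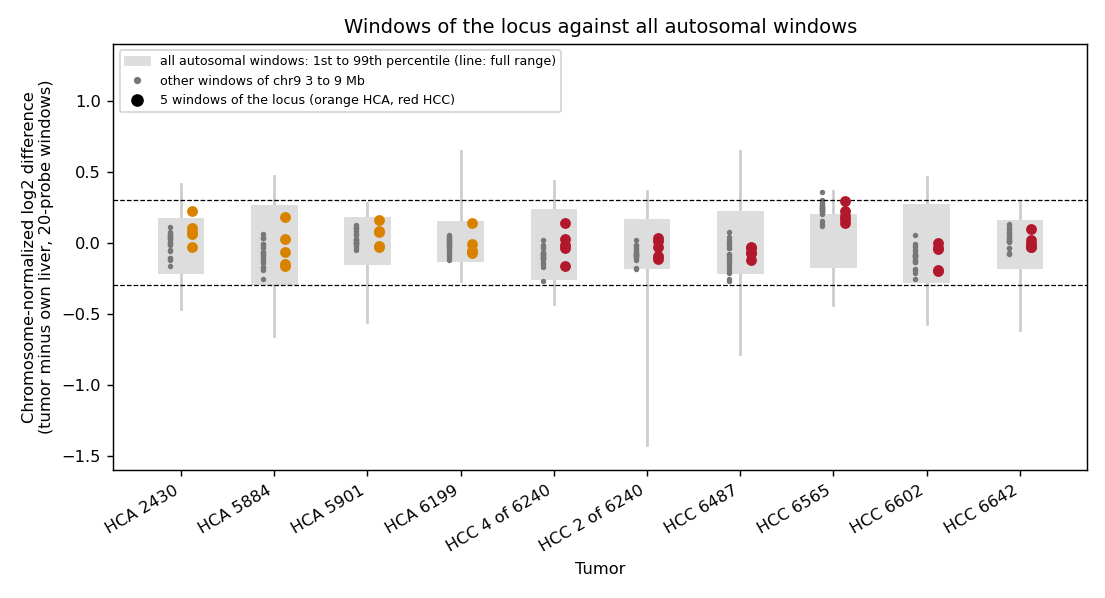
Chromosome-normalized log2 difference, tumor minus own liver, of 20-probe windows in each tumor; the grey box spans the 1st to 99th percentile of all autosomal windows, the grey line their full range, small points are other windows of 3 to 9 Mb and coloured points the 5 windows of the locus. All locus windows lie between the dashed lines at -0.3 and 0.3, and those of HCC 6565 lie highest, from 0.14 to 0.30.

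Across tumors of a type, limma on the chromosome normalized windows called 0 of 26 windows between 3 and 9 Mb, in a genome where it called 0 of 11063 (0.0%) in HCA and 0 of 11063 (0.0%) in HCC. At an unadjusted p under 0.05 it marked 774 windows in HCA and 616 in HCC, of which 1 of 26 in each comparison lay between 3 and 9 Mb and none in the locus. The 5 locus windows differed from liver by -0.072 to 0.038 in HCA and by 0.021 to 0.050 in HCC (smallest limma adjusted p 0.78 and 0.88). The window with the smallest p near the locus in HCA was chr9:7016646-7132145 (-0.14 ± 0.054 SE, limma adjusted p = 0.70), which lies over 0.3 Mb before it. In HCC it was chr9:6150244-6309060 (0.083 ± 0.034 SE, limma adjusted p = 0.84).

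Single probes within the locus were less even than its mean. Their SD over the 9 livers had a median of 0.22, close to the 0.21 of all autosomal probes, and 2 of 97 exceeded 0.6, as did 0.996% of autosomal probes. The probe at chr9:7923358-7923417 had an SD of 0.74 over livers, with a lowest value of -2.47 in 2430, a median of -0.49 and a highest value of -0.13. Its pair differences ran from -1.03 to 2.32, and the highest, in mouse 2430, came from the low liver value. At chr9:7988296-7988355 the livers ran from -1.59 to 0.54 with an SD of 0.65. A value above 1 against the own liver occurred at 2 locus probes in HCA 2430, 1 in HCA 5884 and 1 in HCC 4 of 6240, each time at one of these probes or at chr9:8228428-8228487, where the livers ran from -1.09 to 0.54. The highest mean over any 20 neighbouring probes of the locus was 0.062, in HCC 2 of 6240. Leaving out both variable probes moved the paired contrast from 0.021 to 0.018.

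The other genes of the Hippo and inhibitor of apoptosis (IAP) pathways were placed by chromosome, from the same RefSeq table, because gene positions on mm9 were not analysed here. All 25 Hippo genes and all 14 IAP genes listed were matched. On chr9, beside Yap1, lie Amotl1 and Amotl2, angiomotin-like proteins that bind Yap1, and Birc3. Of the 19 autosomes, 73.7% differed from liver in HCA (7 lower, 7 higher) and 31.6% in HCC (4 lower, 2 higher) by exact permutation with adjustment over 38 tests. In HCA 20 of 25 Hippo genes lay on such a chromosome (14 lower, 6 higher), and in HCC 7 of 25 (6 lower, 1 higher). Both counts were near the share of autosomes. Wwtr1, which encodes TAZ, the paralog of Yap1, lies on chromosome 3 (-0.26 in HCA and -0.14 in HCC, exact permutation adjusted p = 0.0066 for both). Stk3, which encodes the upstream kinase MST2, lies on chromosome 15, which was higher in HCA (0.37) and in HCC (0.19). Of the 14 IAP genes 9 lay on lower and 5 on higher chromosomes in HCA, and 6 on lower and 0 on higher ones in HCC. Those on lower chromosomes included the 4 Naip genes and Ripk1 on chromosome 13 (-0.22 in both). These are whole-chromosome means, and HCC 6565 shows that a gene can depart from them. Genes on the same chromosome share 1 value, as the 4 Naip genes and Ripk1 do, so the counts of neither list describe its pathway.

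Scan day moved with tumor type. The arrays were scanned on 3 days, with 2 HCA on each of days 1 and 2, 1 HCC on day 2 and 5 HCC on day 3. Within days the locus level was lower in tumors each time, by -0.25 (day 1) and -0.16 (day 2) for HCA and by -0.058 (day 2) and -0.19 (day 3) for HCC. With day as a block both differences to liver kept their side of the threshold (-0.21 and -0.16, exact permutation within days, adjusted p = 0.025 for both). For the contrast the within-day differences were 0.019 and -0.0046 for HCA and -0.069 and 0.021 for HCC. All HCA mice were female, and with female mice only the HCC level difference was -0.11 (exact permutation adjusted p = 0.071).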

How the data were processed

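DNA of 19 samples was hybridised to Agilent mouse CGH arrays. Per the file headers the authors extracted the scans with Feature Extraction 10.5.1.1, which gave each spot its deposited log10 ratio of red (sample, Cy5) over green (reference, Cy3) after background subtraction and dye normalisation, together with median signal and background intensity per channel. Probe positions are those of mm9. The log10 values in the series' deposited value table equal those of the scanner files to within 5e-10 and served as an alternative. Here control spots and outlier-flagged spots were left out, spots of a probe were averaged, and ratios were put on the log2 scale and the autosomal median of the array was subtracted. Groups came from the sample labels. Group differences were tested by exact two-sided permutation of the difference in means and paired changes by exact sign flips, with Benjamini-Hochberg adjustment over 3 comparisons. The replicates are separate mice except for the pair of HCCs of 6240. Same-numbered tumor and liver come from the same animal, which is the source of the pairing. Windows of 20 neighbouring probes were tested with limma 3.58.1 (R 4.3.3). The permutation test, the limma window fit and the change-point search were checked on simulated data, and the sign-flip tests were not. Windows were assigned to the locus by their midpoint.

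The locus, comparators and gene lists were chosen with earlier results of these data known. The paired test of the level, the flank and 7.8 to 8.0 Mb summaries, the chromosome 9 change points and the removal of variable probes were added after values were seen. A planned fit per gene, correlations with other genes and a check of the floxed genes were not run, since the files name no genes. The rule for which items the text names covered Yap1 and Birc2, listed genes past the threshold of the gene fit, and windows of 3 to 9 Mb beyond 0.3 in any tumor. Without that fit, the Hippo and IAP genes named were chosen after chromosome values were seen. Probe sequences were not used here. The alternatives were normexp background correction (offset 50) and none, the deposited table, no centring, medians, a filter on dim probes, outlier spots kept, other limits and comparators, rank tests, mouse and scan day as blocks, female mice only, other window sizes and thresholds, and each sample left out.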

Additional observations from a re-analysis of the deposited data

Results flagged for a closer look

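Of 19 groups of values examined for a sample apart from the rest, 5 held one. Chance gives about 1 in 20 for a single group, but the groups overlap, so the count is not a test. The locus contrast of HCC 6565 was 0.20, with the next HCC at 0.0053. Its contrast over 7.8 to 8.0 Mb was 0.21, with the next at 0.0055. Its change of contrast to the own liver was 0.22, with the next at 0.017, and the difference between the proximal and the inner part of chr9 was 0.32, with the next at 0.051. These 4 values share the same tumor and mostly the same probes, and the low inner part of chr9 enters each of them. The proximal and inner parts were bounded by change points chosen on HCC 6565 itself, so its place apart there was set in advance. The unaffected liver of mouse 2430 had a locus contrast of -0.16, with the next liver at -0.065. That array read -2.47 at the probe chr9:7923358-7923417, and without the 2 variable probes its contrast was -0.13.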

How the results depend on the processing

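Of 252 recomputed values, 224 kept their direction and their side of the threshold or their count, 17 changed sign (all of them contrasts that passed no test), 6 were weaker and 5 stronger. Some could not change, such as those from the deposited table, whose values equal those of the scanner files. A value counted as kept could differ in size, as the HCA level against liver did with normexp (-0.079 against -0.23). The level differences to liver missed the threshold in a limma fit with the mouse as a replicate block (-0.18 for HCA, -0.17 for HCC). That fit also changed the test and adjusted over 11064 values, and without the block it gave an adjusted p of 0.0062 for HCA and 0.084 for HCC. The HCC difference missed it too without centring (-0.11) and with female mice only (-0.11). The HCA contrast to liver turned to -0.0035 with normexp, -0.00078 with bright probes only and -0.0040 without the variable probes. The HCC contrast to liver turned to -0.012 with females only. The HCC contrast to HCA turned to -0.026 against the flanks, -0.011 with the replicate block, -0.065 with scan day as a block, -0.026 with females only and -0.012 for 7.8 to 8.0 Mb. Leaving out each sample gave -0.15 to -0.093 for the HCC level against liver (lowest without 6565, highest without 6642), 0.031 to 0.13 for the HCC level against HCA, -0.016 to 0.016 for the HCA contrast to liver, -0.014 to 0.042 for HCC to liver and -0.014 to 0.044 for HCC to HCA. The paired contrast ran from -0.0032 (without 6565) to 0.033. Centred on the array only, limma called 4257 of 11063 windows in HCA (38.5%), 5 of them in the locus and 26 in 3 to 9 Mb. In HCC it called 2019 (18.3%), 0 of them in the locus and 8 in 3 to 9 Mb. At a threshold of 0.2 the focal calls were 3 in the locus and 27 in 3 to 9 Mb, and at 0.5 they were 0. HCC 6565 held 2 of the 3 and 19 of the 27. In that tumor the windows of 3 to 9 Mb read at most 0.081 on the array-centred scale. The share of all 11063 windows beyond 0.2 ran from 0.28% (HCA 6199) to 8.02% (HCA 5884), with 1.43% in HCC 6565. Beyond 0.5 the share was at most 0.208% (HCC 6487). With the replicate block the contrasts and the chromosome normalized windows gave no call either, and the rest of chr9, whole autosomes and array-centred windows were not fitted with it. The cause of these changes was not tested. A change confined to fewer than 10 probes was not examined with windows. Signal close to background limits single probes.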
